A study of Arabidopsis thaliana with 12 samples.

Results

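Glutathione S-transferase (GST) genes were taken as every gene of the deposited table whose description holds the words glutathione S-transferase, 60 of the 33197 genes with an identifier. The RNA, poly(A)-selected and sequenced, came from Arabidopsis thaliana leaves labelled as 18 days, and 12 libraries were made. The groups were lines labelled anac017 mutant, anac082 mutant and anac090 mutant and the Columbia wild type (WT), with 3 libraries each. All lines share the Columbia background, and the mutants are T-DNA insertion lines of genes of NAC transcription factors, a family of plant regulators. The series concerns the timing of age-dependent cell death, and the comparisons ask how leaf RNA differs between each line and WT at this age. The labels name 1 line per gene and nothing on which plants each library holds. The p-values thus cover only library-to-library spread, possibly technical.

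GST enzymes join the tripeptide glutathione to reactive molecules, which the cell can then move into the vacuole. Plants have large classes of their own, tau and phi, whose genes often lie side by side in the genome and often respond to pathogens, salicylic acid, herbicides and oxidative stress. Smaller classes do other chemistry: zeta enzymes take part in the breakdown of tyrosine, theta enzymes reduce organic peroxides, lambda enzymes act as reductases, and dehydroascorbate reductases (DHAR) use glutathione to restore ascorbate.

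Values are on the deposited log2 scale, treated as log2(abundance + 1) and quantile normalized between libraries, with the depth of each library unknown. A fold change on this scale understates the change of genes with low values. A level of 0 means only that the gene was listed at 0. In the whole series, 16817 genes had a mean back-transformed level (2 to the deposited value, minus 1) of at least 1 and were tested. Changes are given as log2 change ± SE from limma over all these genes, and a gene was called at a Benjamini-Hochberg adjusted p under 0.05. Unless another fit is named, calls are those of the model over all 12 libraries with no replicate block. Replicate 3 of anac090 stood apart from all other libraries, at 74.1 on the first principal component (51.0% of the variance), where the other libraries lay between -35.6 and 21.6. Replicate 1 of anac082 lay at -27.0, near the WT libraries (-35.6 to -29.7), and the other 2 anac082 libraries lay at 5.70 and 3.60. The labels were checked on the targeted transcripts. ANAC082 stood at 9.75 to 9.94 in the libraries labelled anac082, against 4.98 to 5.07 in WT. It was also called higher in those labelled anac017, at 5.99 to 6.19 (change 1.04, adjusted p = 0.00137, limma). ANAC017 stood at 6.68 to 6.84 in the libraries labelled anac017, against 5.79 to 5.99 in WT, and ANAC090 at 0.72 to 1.22 in those labelled anac090, against 1.35 to 1.75 in WT (adjusted p = 0.192, limma). ANAC090 also lay above WT in the libraries labelled anac017 (1.96 to 3.43) and anac082 (2.39 to 2.51), without a call (adjusted p = 0.0751 and 0.664, limma). The targeted transcript was thus higher than WT in the libraries labelled anac017 and anac082, so every direction below is that of libraries with that label. The mesophyll genes of the marker list were high in every library (CAB1 at 12.31, GLDP1 at 8.06 to 9.05), and both seed storage genes were listed at 0 in all 12.

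By name, the 60 genes were 28 tau, 13 phi, 3 theta, 2 zeta, 3 lambda, 3 DHAR and 8 others. The others were TCHQD, a microsomal-type gene (AT1G65820) and 6 genes without a symbol. Of the 60, 45 were tested. The 15 genes not tested, among them 10 tau and 3 phi, reached at most 2.98 in any library, and GSTU14, GSTF14 and GSTF13 were listed at 0 in all 12. At the filter, GSTU23 lay just inside, at a mean back-transformed level of 1.18, and GSTU28 just outside, at 0.842. GSTF12, GSTL1, GSTU11 and AT5G44990 are 4 tested genes that would have missed the filter on the WT libraries alone, so counts over the tested genes are not counts over all members. AT5G44990 passed only through the anac090 libraries and GSTF12 only through the anac017 libraries (means of 0.536 and 0.837 without them). AT5G44990 is 1 of the 12 called higher in anac090 with the block.

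Few genes carried most of the GST transcript in WT leaves. GSTF9 had the highest mean back-transformed level over the WT libraries, 585, followed by GSTF2 at 352, GSTL3 at 247, GSTU19 at 240, GSTU20 at 235, GSTF10 at 190, DHAR1 at 169, DHAR3 at 137, AT1G65820 at 114 and GSTF8 at 97.4. These 10 genes made up 73.2% of the sum over the 60. The low end of the deposited values fell with gene length, so the levels appear to be per length, although the sources used here do not say so. The summed level of the phi genes was 2709, 2294 and 2695 in anac017, 1709, 2057 and 2125 in anac082, 2833, 1671 and 4017 in anac090, and 1454, 1270 and 1515 in WT. Each mutant library thus had a higher phi sum than the highest WT library. The tau sum was 669 to 864 in anac017, 732 to 792 in anac082 and 698 to 997 in anac090, against 775 to 909 in WT, with overlap in each case. All 60 genes together made up 0.699% ± 0.017 of the library sum in anac017, 0.600% ± 0.046 in anac082 and 0.752% ± 0.228 in anac090, against 0.521% ± 0.030 in WT (SD, n = 3 each). In bulk leaf RNA, a change in the number of cells of a type and a change of RNA per cell cannot be told apart.

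**Figure D1:**
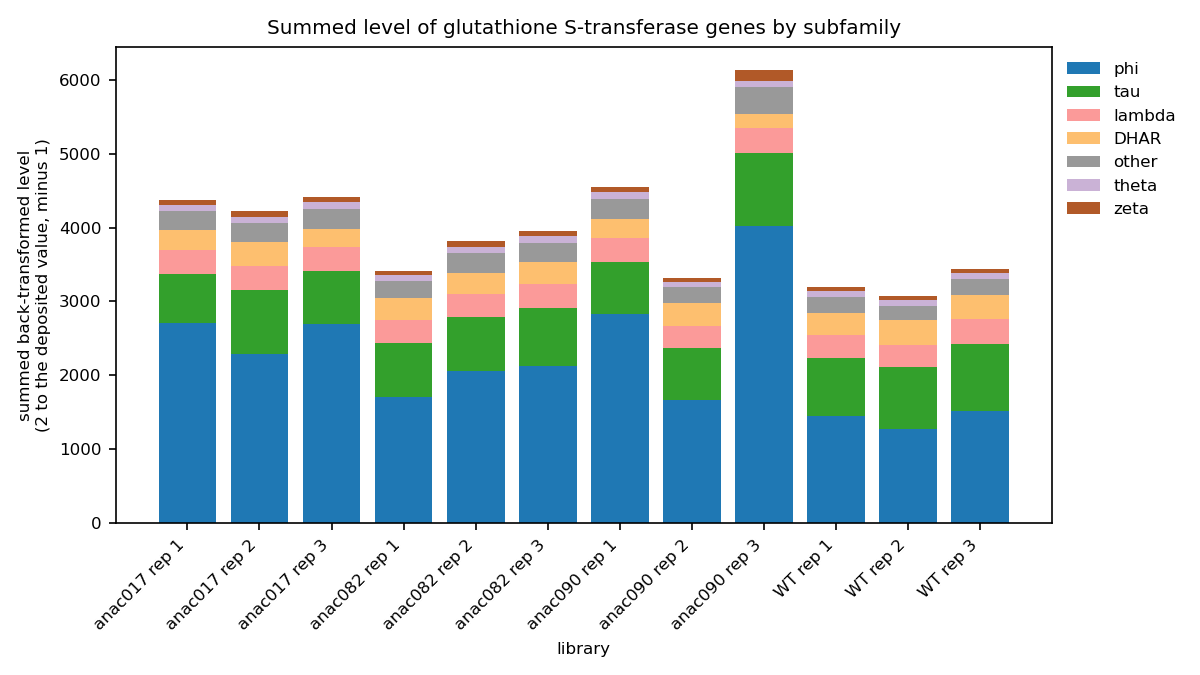
Summed back-transformed level (2 to the deposited value, minus 1) of the GST genes in each library, with subfamilies stacked in colour. The phi sums of the anac017, anac082 and anac090 libraries lie between 1671 and 4017 and those of WT between 1270 and 1515, and anac090 replicate 3 has the tallest bar.

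In libraries labelled anac017, 1 of the 45 tested genes, the phi gene GSTF3, was called higher than WT and none lower. In those labelled anac090, 6 were called higher, the phi genes GSTF2, GSTF3, GSTF6 and GSTF7 and the tau genes GSTU4 and GSTU9, and 1, the tau gene GSTU18, was called lower. None was called in anac082, where 3 (GSTF2, GSTF3 and AT4G19880) had an unadjusted p under 0.05, all higher than WT. Over all genes, 3.71% had such a p and a higher mean in anac082. Over all genes tested, the share called higher was 1.47% in anac017, 0.0297% in anac082 and 3.66% in anac090, and the share called lower was 0.612%, 0.0178% and 3.65% in the same order. With the replicate number as a block, the counts became 5 higher and 0 lower in anac017 and 12 higher and 2 lower in anac090, against shares of all genes of 4.11% and 3.05% in anac017 and 8.19% and 10.1% in anac090. The block left anac082 at 0 in both directions (0.0238% and 0.0119% of all genes). The 3 comparisons share the WT libraries, so likeness between them is not counted as repetition.

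Without a test, the 3 libraries of anac017 lay entirely above WT for 17 of the 45 genes (19.0% of all genes tested) and entirely below for 11 (22.6%). In anac082 these counts were 6 (8.37%) and 6 (10.3%), and in anac090 12 (13.4%) and 10 (18.2%). The 12 in anac090 include AT5G44990, which passed the filter only through those libraries. GSTF12, which passed only through the anac017 libraries, overlapped WT there, and both genes enter the medians below. The median change of the 45 genes was 0.20 in anac017, 0.05 in anac082 and 0.06 in anac090, beside -0.02, -0.01 and -0.03 over all genes. By class, the 10 tested phi genes had medians of 0.83, 0.21 and 0.30 and the 18 tested tau genes 0.14, 0.00 and -0.22.

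The calls moved with single libraries, including libraries of groups outside the comparison, since 1 model holds all 12. Without anac090 replicate 3, the counts were 12 higher and 4 lower in anac017, where 8.38% and 9.2% of all genes were then called higher and lower, and 0 in both directions in anac090 (0.874% and 0.601%). Without anac090 replicate 2, they were 7 and 1 in anac017 (5.26% and 4.57% of all genes) and 15 and 9 in anac090 (13.8% and 16.0%). In anac017 no gene was called without anac017 replicate 3, WT replicate 2 or WT replicate 3, and without anac017 replicate 1 the 1 gene called was GSTU24. In those fits only 0.268% to 0.303% of all genes were called higher and 0.0178% to 0.0476% lower in anac017. In anac090 no gene was called without anac017 replicate 3, anac082 replicate 3, anac090 replicate 1 or any single WT library. The shares of all genes there were 0.0535% to 1.08% higher and 0.0119% to 1.02% lower. Without anac017 replicate 2, 1 gene was called in anac090 (GSTF3), and without anac017 replicate 1 or anac082 replicate 2 there were 2 (GSTF2 and GSTF3), each with 0 lower. Those fits called 0.809% to 1.31% of all genes higher and 0.416% to 0.928% lower in anac090. Without anac082 replicate 1 the 6 higher calls in anac090 were met by 0 lower (3.45% and 2.81% of all genes). When anac082 replicate 1 and anac090 replicate 3 were both left out, the counts were 14 higher and 5 lower in anac017 (10.5% and 11.2% of all genes), 10 and 0 in anac082 (2.48% and 1.8%), and 7 and 1 in anac090 (2.88% and 2.38%). These 2 libraries stood out on the first principal component of the same values. Leaving out the anac082 library nearest WT there moves that group away from WT, so the anac082 counts are a description only. With only the 2 groups compared in the fit, the counts of called members were 16 and 4 in anac017 (10.3% and 11.2% of all genes) and 0 and 0 in both anac082 (0.0238% and 0.0%) and anac090 (0.0119% and 0.00595%). The calls over all genes thus moved with the libraries as well.

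**Figure D2:**
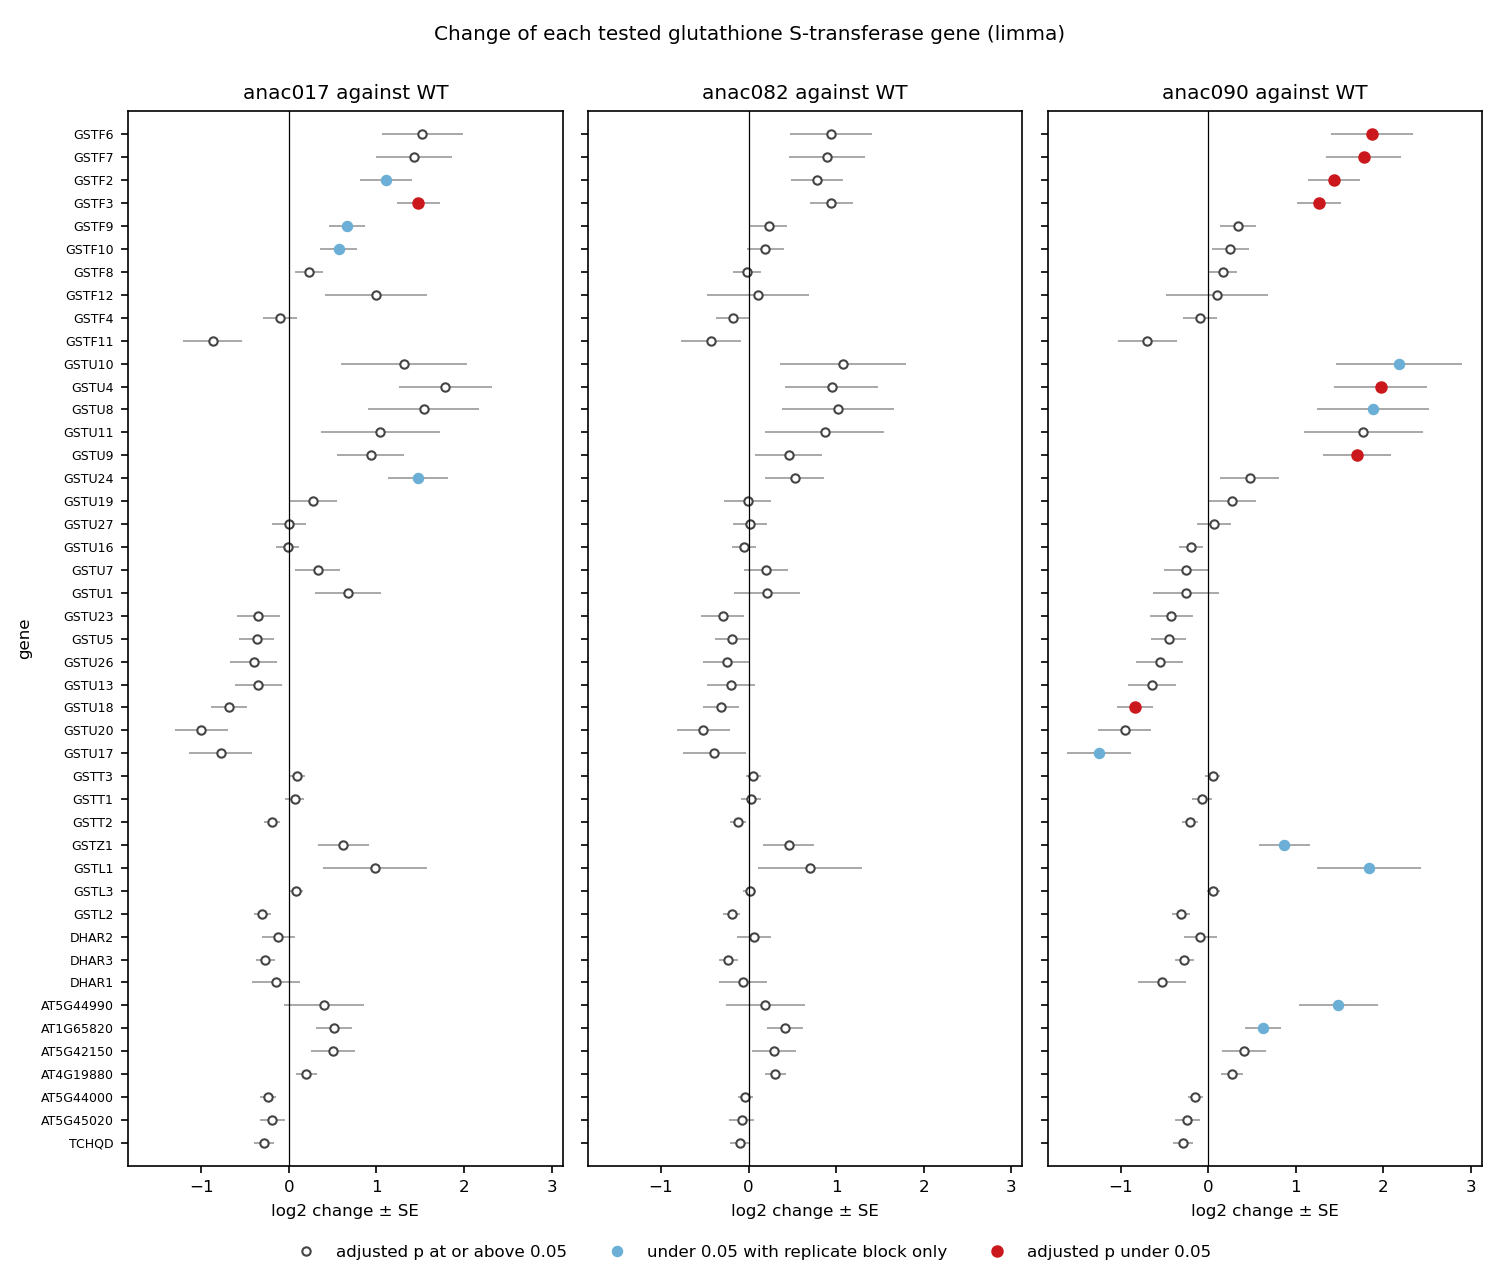
Log2 change ± SE (limma, x axis) of the 45 tested GST genes (y axis), in anac017, anac082 and anac090 against WT from left to right. Red points had an adjusted p under 0.05, blue points had one with the replicate block and not without it, and the red points are 1 in anac017, 0 in anac082 and 7 in anac090.

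The phi class, 10 of the 45 tested genes, held 5 of the 8 calls. GSTF3 is counted there in 2 comparisons, which share the WT libraries, and the phi genes called are 2 pairs of near copies. GSTF3 (AT2G02930, chromosome 2, 851164 to 852222 in the table's TAIR10 coordinates) was a gene of low level, at 3.01, 2.39 and 2.98 in anac017, 1.795, 2.73 and 2.26 in anac082, 2.53, 2.42 and 2.79 in anac090, and 1.62, 1.23 and 1.09 in WT. All 9 mutant libraries lay above the highest WT library. The change was 1.48 ± 0.25 in anac017 (2.79-fold, adjusted p = 0.0196) and 1.27 ± 0.25 in anac090 (2.41-fold, adjusted p = 0.0307), and 0.95 ± 0.25 in anac082 (adjusted p = 0.652, unadjusted 0.00307). The call in anac017 was lost without anac017 replicate 1 (adjusted p = 0.0892) or 3 (0.0869) and without WT replicate 2 (0.0860) or 3 (0.0945), with changes of 1.37 to 1.44. In anac017 the call stood in 8 of the 12 fits that leave out 1 library, and in anac090 in 5 of 12.

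GSTF2 (AT4G02520, chromosome 4, 1110452 to 1111660) encodes one of the most abundant GST transcripts here, and its protein is known to bind small ligands such as auxin and camalexin. It stood at 9.60, 9.39 and 9.74 in anac017, 8.76, 9.52 and 9.44 in anac082, 9.96, 9.18 and 10.56 in anac090, and 8.42, 8.36 and 8.60 in WT. Here too no mutant library overlapped WT. GSTF2 rose by 1.44 ± 0.30 in anac090 (2.71-fold, adjusted p = 0.0335, called in 4 of the 12 fits that leave out 1 library). Its change was 1.11 ± 0.30 in anac017 (adjusted p = 0.0725, 0.0413 with the replicate block) and 0.78 ± 0.30 in anac082 (adjusted p = 0.664).

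GSTF6 (AT1G02930, chromosome 1, 661177 to 662456), which is linked to the synthesis of the defence compound camalexin, and GSTF7 (AT1G02920, chromosome 1, 658657 to 659771) are neighbours. GSTF6 stood at 8.01, 7.86 and 8.14 in anac017, 6.74, 7.78 and 7.73 in anac082, 8.28, 7.25 and 9.51 in anac090, and 6.18, 6.50 and 6.75 in WT. GSTF7 stood at 7.67, 7.52 and 7.86 in anac017, 6.44, 7.63 and 7.37 in anac082, 7.96, 7.09 and 9.03 in anac090, and 5.90, 6.27 and 6.60 in WT. For both genes the anac017 and anac090 libraries lay above WT, anac082 replicate 1 lay among the WT libraries, and anac090 replicate 3 was the highest of the 12. In anac090 GSTF6 rose by 1.87 ± 0.46 (3.65-fold, adjusted p = 0.0418) and GSTF7 by 1.77 ± 0.43 (3.42-fold, adjusted p = 0.0411), each called in 2 of the 12 fits that leave out 1 library. Without anac090 replicate 3 the changes were 1.29 (adjusted p = 0.0815) and 1.27 (0.0855). In anac017 they were 1.52 ± 0.46 (adjusted p = 0.0929) and 1.43 ± 0.43 (0.0909), and in anac082 0.94 ± 0.46 (0.696) and 0.89 ± 0.43 (0.696).

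These 4 genes form 2 pairs of near copies, whose reads the counting could have shared between them, so the values of a pair are uncertain. The mean back-transformed level over the WT libraries was 352 for GSTF2 and 1.52 for GSTF3, the only gene called in anac017. In the RefSeq coding sequences of the TAIR10.1 assembly, GSTF7 and GSTF6 were identical at 94.3% of aligned positions and GSTF3 and GSTF2 at 94.5%. The longest identical runs were 116 and 74 bases, and a read lying wholly inside an identical run could not tell a pair apart. Shorter runs of these pairs were not listed, and untranslated regions were not compared. The longest runs are printed here, read 5′ to 3′ on the coding strand.
GSTF7 and GSTF6, coding bases 313 to 428 of GSTF7: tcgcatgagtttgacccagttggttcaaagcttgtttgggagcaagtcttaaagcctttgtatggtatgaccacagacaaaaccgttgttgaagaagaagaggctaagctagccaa
GSTF3 and GSTF2, coding bases 163 to 236 of both: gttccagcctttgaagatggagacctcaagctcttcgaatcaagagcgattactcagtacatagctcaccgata
Of the 1770 pairs among the 60 genes, 7 shared an identical run of 40 bases or more. The other 5 were GSTT2 with GSTT3 (134 bases), GSTT1 with GSTT3 (90) and with GSTT2 (50), AT1G19550 with DHAR1 (148) and GSTU2 with GSTU4 (42). No source used here gives the read length, and how far reads were shared was not tested.

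**Figure D3:**
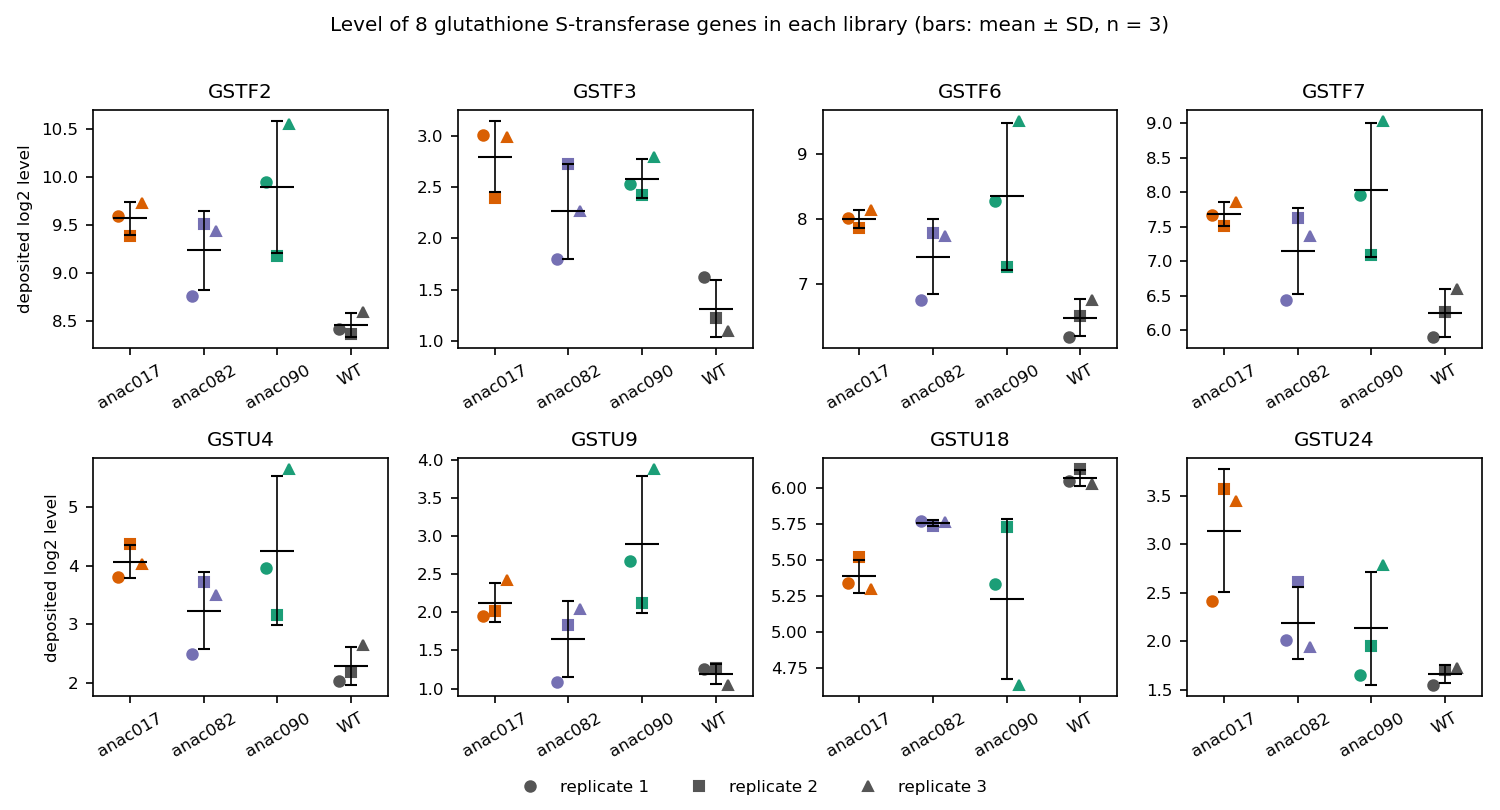
Deposited log2 level (y axis, a scale of its own in each panel) of 8 GST genes in each library, by group on the x axis, with point shapes for replicates 1, 2 and 3 and bars for mean ± SD (n = 3). For GSTF2, GSTF3, GSTF6, GSTF7, GSTU4 and GSTU9 all anac017 and anac090 libraries lie above WT, for GSTU18 all mutant libraries lie below WT, and anac082 replicate 1 lies at or near WT for GSTF6, GSTF7, GSTU4 and GSTU9.

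None of the other 6 tested phi genes was called without the block. GSTF9 (AT2G30860, chromosome 2, 13138997 to 13140245), the most abundant member, stood at 10.04, 9.65 and 9.85 in anac017, 9.56, 9.19 and 9.48 in anac082, 9.80, 9.01 and 9.77 in anac090, and 9.37, 8.98 and 9.20 in WT. Its neighbour GSTF10 (AT2G30870), known to bind the receptor kinase BAK1, stood at 8.24, 8.00 and 8.13 in anac017, 7.80, 7.55 and 7.87 in anac082, 8.07, 7.34 and 8.01 in anac090, and 7.75, 7.14 and 7.77 in WT. Both were above WT in all 3 anac017 libraries and overlapped WT in anac082 and anac090. The changes in anac017 were 0.66 ± 0.21 for GSTF9 (adjusted p = 0.0969, 0.0183 with the block) and 0.57 ± 0.21 for GSTF10 (adjusted p = 0.137, 0.0302 with the block), so over all 12 libraries both were called with the block and not without it. In anac082 they were 0.23 ± 0.21 (adjusted p = 0.767) and 0.19 ± 0.21 (0.803), and in anac090 0.34 ± 0.21 (0.274) and 0.25 ± 0.21 (0.433).

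GSTF8 (AT2G47730), whose promoter is widely used as a stress reporter, stood at 6.67, 7.10 and 6.77 in anac017, 6.45, 6.93 and 6.42 in anac082, 6.69, 6.74 and 6.91 in anac090, and 6.43, 6.80 and 6.61 in WT. Each group overlapped WT, with changes of 0.24, -0.01 and 0.17 and adjusted p of 0.364 or more. GSTF11 (AT3G03190), which is linked to glucosinolate synthesis, stood at 3.55, 3.39 and 2.91 in anac017, 3.92, 3.28 and 3.97 in anac082, 3.79, 4.05 and 2.55 in anac090, and 4.09, 4.17 and 4.21 in WT. All mutant libraries lay below the lowest WT library, but none of the changes, -0.87 ± 0.34, -0.43 ± 0.34 and -0.69 ± 0.34, was called (adjusted p = 0.151, 0.744 and 0.185). The remaining 2 tested phi genes, GSTF4 and GSTF12, overlapped WT in each comparison.

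Among the 18 tested tau genes, 2 were called higher and 1 lower, all in anac090. GSTU4 (AT2G29460, chromosome 2, 12626536 to 12627678) stood at 3.80, 4.37 and 4.04 in anac017, 2.48, 3.72 and 3.50 in anac082, 3.95, 3.16 and 5.65 in anac090, and 2.02, 2.18 and 2.65 in WT. The anac017 and anac090 libraries lay above WT, and anac082 replicate 1 lay within the WT range. The rise in anac090 was 1.97 ± 0.53 (3.92-fold, adjusted p = 0.0495) and stood in 2 of the 12 fits that leave out 1 library. Without anac090 replicate 3 it was 1.27 (adjusted p = 0.0938). The change in anac017 was 1.78 ± 0.53 (adjusted p = 0.0880) and in anac082 0.95 ± 0.53 (0.697).

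GSTU9 (AT5G62480, chromosome 5, 25088694 to 25089620) stood at 1.95, 2.01 and 2.42 in anac017, 1.08, 1.83 and 2.04 in anac082, 2.67, 2.12 and 3.87 in anac090, and 1.26, 1.28 and 1.04 in WT. In anac090 it rose by 1.70 ± 0.38 (3.24-fold, adjusted p = 0.0369), again called in 2 of 12 such fits. Without anac090 replicate 3 the change was 1.20 (adjusted p = 0.0585). It was 0.93 ± 0.38 in anac017 (adjusted p = 0.166), where the libraries also lay above WT, and 0.46 ± 0.38 in anac082 (0.756), where they overlapped.

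GSTU18 (AT1G10360, chromosome 1, 3395558 to 3396849) was the only GST gene called lower in the model over all 12 libraries without the block. It stood at 5.34, 5.52 and 5.30 in anac017, 5.77, 5.73 and 5.76 in anac082, 5.34, 5.72 and 4.63 in anac090, and 6.05, 6.13 and 6.03 in WT, with all 9 mutant libraries below WT. In anac090 it fell by 0.84 on the log2 scale (SE 0.21, 1.78 times lower, adjusted p = 0.0421), in 1 of the 12 fits that leave out 1 library. Without anac090 replicate 3 the change was -0.54 (adjusted p = 0.0516). The changes in anac017 and anac082 were -0.68 ± 0.21 (adjusted p = 0.0933) and -0.31 ± 0.21 (0.713). Its neighbour GSTU17 (AT1G10370), linked to light signalling and drought responses, stood at 3.01, 4.16 and 3.66 in anac017, 3.73, 4.13 and 4.14 in anac082, 2.83, 3.75 and 2.85 in anac090, and 3.70, 4.68 and 4.79 in WT. It overlapped WT in every group, and its change of -1.25 ± 0.36 in anac090 was called with the block and not without it (adjusted p = 0.0173 and 0.0581).

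Several tau genes of low level in WT had large changes that were not called in the fit without the block. GSTU10 (AT1G74590) stood at 3.53, 3.25 and 3.86 in anac017, 2.31, 3.76 and 3.85 in anac082, 4.16, 2.80 and 6.27 in anac090, and 1.75, 2.14 and 2.80 in WT. GSTU8 (AT3G09270) stood at 3.06, 3.68 and 4.03 in anac017, 2.25, 3.69 and 3.27 in anac082, 3.21, 2.93 and 5.64 in anac090, and 1.75, 1.79 and 2.61 in WT. In both genes anac090 replicate 3 was far above every other library. The changes in anac090 were 2.18 ± 0.72 for GSTU10 (adjusted p = 0.0757, 0.0358 with the block) and 1.88 ± 0.64 for GSTU8 (0.0799, 0.0324 with the block). In anac017 they were 1.31 ± 0.72 (adjusted p = 0.267) and 1.54 ± 0.64 (0.167), and in anac082 1.08 ± 0.72 (0.713) and 1.02 ± 0.64 (0.710).

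GSTU11 (AT1G69930) stood at 0.84, 1.54 and 1.50 in anac017, 0.41, 1.61 and 1.33 in anac082, 1.21, 0.82 and 4.03 in anac090, and 0.36, 0.00 and 0.39 in WT. Its mutant libraries all lay above WT, with changes of 1.05 ± 0.68, 0.87 ± 0.68 and 1.77 ± 0.68 (adjusted p = 0.346, 0.744 and 0.107). GSTU24 (AT1G17170), known for acting on the explosive TNT, stood at 2.41, 3.56 and 3.44 in anac017, 2.02, 2.61 and 1.94 in anac082, 1.66, 1.96 and 2.78 in anac090, and 1.55, 1.70 and 1.73 in WT. Its anac017 and anac082 libraries lay above WT and anac090 overlapped it. The change in anac017 was 1.48 ± 0.34 (2.78-fold, adjusted p = 0.0525, 0.0248 with the block), beside 0.53 ± 0.34 in anac082 (adjusted p = 0.711) and 0.47 ± 0.34 in anac090 (0.358).

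The lower side of the tau class also held GSTU20, GSTU13, GSTU26, GSTU23 and GSTU5, none of them called. GSTU20 (AT1G78370), whose protein binds the jasmonate-conjugating enzyme JAR1, stood at 6.83, 7.01 and 6.76 in anac017, 7.59, 6.86 and 7.60 in anac082, 7.35, 7.24 and 6.15 in anac090, and 7.62, 7.82 and 8.16 in WT. All mutant libraries were below WT, with changes of -1.001 ± 0.30 (adjusted p = 0.0905), -0.52 ± 0.30 (0.707) and -0.95 ± 0.30 (0.0684). GSTU13 (AT1G27130), linked to indole glucosinolates, stood at 5.92, 5.73 and 5.41 in anac017, 6.15, 5.69 and 5.65 in anac082, 5.84, 5.68 and 4.65 in anac090, and 6.01, 6.12 and 5.97 in WT. Its anac017 and anac090 libraries were below WT, by 0.35 and 0.64 in the means (adjusted p = 0.432 and 0.133).

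GSTU26 (AT1G17190) stood at 0.92, 1.36 and 1.21 in anac017, 1.53, 1.35 and 1.06 in anac082, 1.05, 1.59 and 0.40 in anac090, and 1.52, 1.75 and 1.43 in WT. GSTU23 (AT1G78320) stood at 0.94, 1.25 and 0.85 in anac017, 1.22, 1.07 and 0.91 in anac082, 0.90, 1.48 and 0.44 in anac090, and 1.24, 1.57 and 1.27 in WT. These genes lay near the filter, and their changes ranged from -0.55 to -0.25 for GSTU26 and from -0.42 to -0.30 for GSTU23, with adjusted p of 0.179 or more. GSTU19 (AT1G78380), the tau gene with the highest WT level, stood at 7.94, 8.45 and 8.16 in anac017, 7.84, 7.99 and 7.88 in anac082, 7.92, 7.64 and 8.98 in anac090, and 7.95, 7.85 and 7.93 in WT. Its changes were 0.27, -0.01 and 0.27 ± 0.27, and in anac090 1 library, replicate 3, lay clearly above WT. Without that library the change of GSTU19 was -0.13, so its direction in anac090 rests on replicate 3. The other 4 tested tau genes, GSTU1, GSTU7, GSTU16 and GSTU27, had no call in any comparison.

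**Figure D4:**
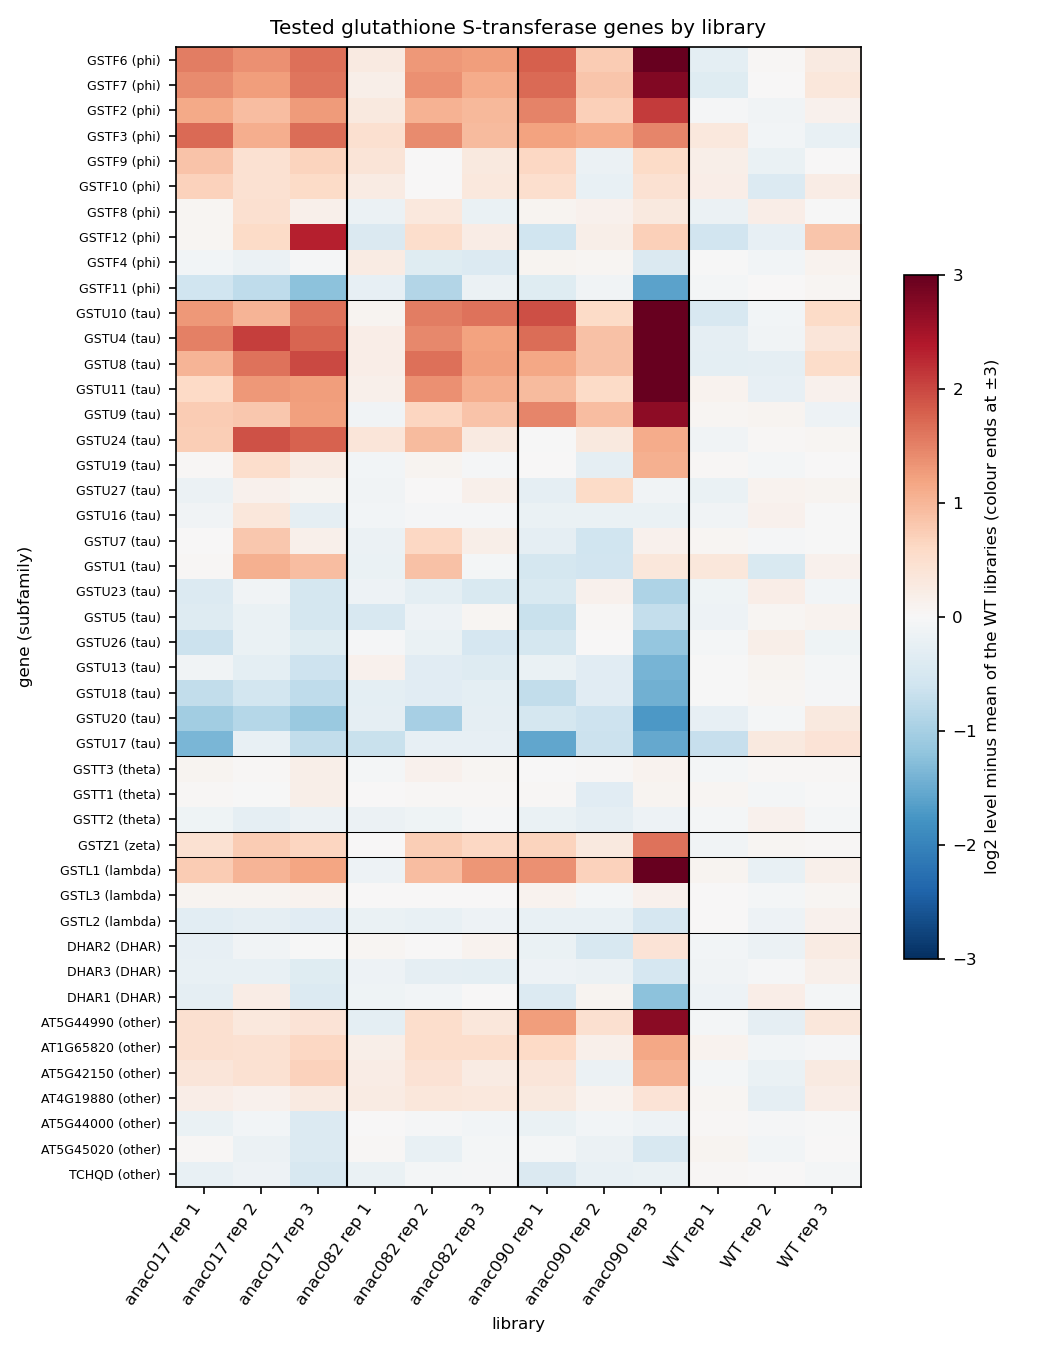
Difference of each library from the WT mean (colour, log2, ends of the scale at ±3) for the 45 tested GST genes in rows, with the replicates of anac017, anac082, anac090 and WT in columns. The column of anac090 replicate 3 reaches 4.04 (GSTU10), past the end of the scale.

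Genes of the smaller classes had no call in the fit without the block. GSTL1 (AT5G02780), a lambda gene, stood at 1.13, 1.39 and 1.56 in anac017, 0.23, 1.30 and 1.70 in anac082, 1.75, 1.06 and 3.82 in anac090, and 0.46, 0.15 and 0.52 in WT. Its change of 1.83 ± 0.59 in anac090 had an adjusted p of 0.0715 (0.0363 with the block), and that of 0.98 ± 0.59 in anac017 one of 0.308. Its neighbour GSTL3 (AT5G02790), among the most abundant members, stood at 8.02, 8.03 and 8.07 in anac017, 7.96, 7.97 and 7.96 in anac082, 8.06, 7.89 and 8.07 in anac090, and 7.96, 7.89 and 8.01 in WT. GSTL3 thus varied little over all 12 libraries, with changes of 0.09, 0.01 and 0.06 ± 0.07. The microsomal-type gene AT1G65820 stood at 7.32, 7.30 and 7.48 in anac017, 7.03, 7.38 and 7.39 in anac082, 7.44, 6.99 and 8.00 in anac090, and 6.96, 6.77 and 6.81 in WT, above WT in all 9 libraries. Its changes were 0.52, 0.42 and 0.63 ± 0.21 (adjusted p = 0.155, 0.696 and 0.0742, and 0.0483 with the block in anac090).

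AT5G44990 stood at 0.87, 0.71 and 0.80 in anac017, 0.10, 0.91 and 0.74 in anac082, 1.66, 0.87 and 3.10 in anac090, and 0.32, 0.13 and 0.72 in WT. Its difference of 1.48 ± 0.45 in anac090 (adjusted p = 0.0641, 0.0393 with the block) is given as a description, because its mean back-transformed level without the anac090 libraries, 0.536, was under the filter, so that it entered the test through the group compared. Its neighbour AT5G45020 stood at 2.88, 2.67 and 2.43 in anac017, 2.89, 2.64 and 2.80 in anac082, 2.79, 2.68 and 2.37 in anac090, and 2.92, 2.77 and 2.86 in WT. The tyrosine pathway gene GSTZ1, named here because the block called it, had a change of 0.87 in anac090 (adjusted p = 0.0765, 0.0472 with the block). DHAR1 (AT1G19570), a cytosolic enzyme, stood at 7.14, 7.62 and 6.99 in anac017, 7.28, 7.31 and 7.42 in anac082, 6.99, 7.48 and 6.17 in anac090, and 7.25, 7.61 and 7.35 in WT, with overlap in every comparison. DHAR3 (AT5G16710), the plastid enzyme, stood at 6.88, 6.89 and 6.74 in anac017, 6.96, 6.84 and 6.81 in anac082, 6.95, 6.93 and 6.61 in anac090, and 6.997, 7.07 and 7.25 in WT. Every mutant library of DHAR3 lay below WT, by 0.27, 0.23 and 0.28 in the means (adjusted p = 0.164, 0.696 and 0.118). The 3 theta genes had changes between -0.21 and 0.10 in all 3 comparisons.

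Between the mutant lines, none of the 45 genes was called in any of the 3 comparisons. Over all genes the shares called higher and lower were 0.773% and 0.119% for anac017 against anac082, 1.31% and 0.172% for anac017 against anac090, and 0.0119% and 0.0% for anac082 against anac090. At an unadjusted p under 0.05, these comparisons held 2, 4 and 5 of the 45 genes, beside 11.3%, 12.7% and 11.4% of all genes, and with the block the counts of calls were also 0 (limma). The block called 1.19% of all genes higher and 0.327% lower for anac017 against anac082, 1.9% and 0.392% for anac017 against anac090, and 0.0119% and 0.00595% for anac082 against anac090. A call in one line and not in another is therefore not shown to be a difference between the lines. GSTU24, for example, was 1.01 ± 0.34 higher in anac017 than in anac090 (adjusted p = 0.231), and GSTU9 was 1.24 ± 0.38 lower in anac082 than in anac090 (adjusted p = 0.369). These 2 examples were chosen after their values were seen.

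Neighbours in tandem arrays could have unlike changes. With starts at most 10 kb apart, 40 of the 60 genes fell into 14 arrays, and in 9 pairs of neighbours both genes were tested. A neighbour is the next GST member of the array, and other genes can lie between, as AT5G45010 does between AT5G44990 and AT5G45020. In the array of GSTF7, GSTF6, GSTF5 and GSTF4 on chromosome 1 (658657 to 666452), GSTF7 and GSTF6 were high in anac017 and anac090, GSTF5 was listed at 0.00 to 0.36, and GSTF4 had changes between -0.18 and -0.09. In the array of 7 tau genes on chromosome 2 (12617936 to 12632473), GSTU4 had changes of 1.78, 0.95 and 1.97 in anac017, anac082 and anac090, while its neighbour GSTU5 had -0.37, -0.19 and -0.45. GSTU5 (AT2G29450) stood at 6.20, 6.39 and 6.07 in anac017, 6.12, 6.43 and 6.65 in anac082, 5.92, 6.61 and 5.86 in anac090, and 6.42, 6.64 and 6.69 in WT, and it was not called (adjusted p = 0.264, 0.790 and 0.145). In the array of GSTU23, GSTU22, GSTU21, GSTU20 and GSTU19, the changes of the neighbours GSTU20 and GSTU19 were on opposite sides of 0 in anac017 and anac090. The anac090 libraries of GSTU19 lay 0.004, -0.27 and 1.07 from the WT mean, so its side in anac090 rests on replicate 3. GSTL1 with GSTL3 and AT5G44990 with AT5G45020 were the other neighbours whose changes differed by more than 1 log2 unit, both in anac090. AT5G44990 entered the test only through the anac090 libraries, so its pair is given as a description. Differences between the changes of 2 neighbours were not tested.

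**Figure D5:**
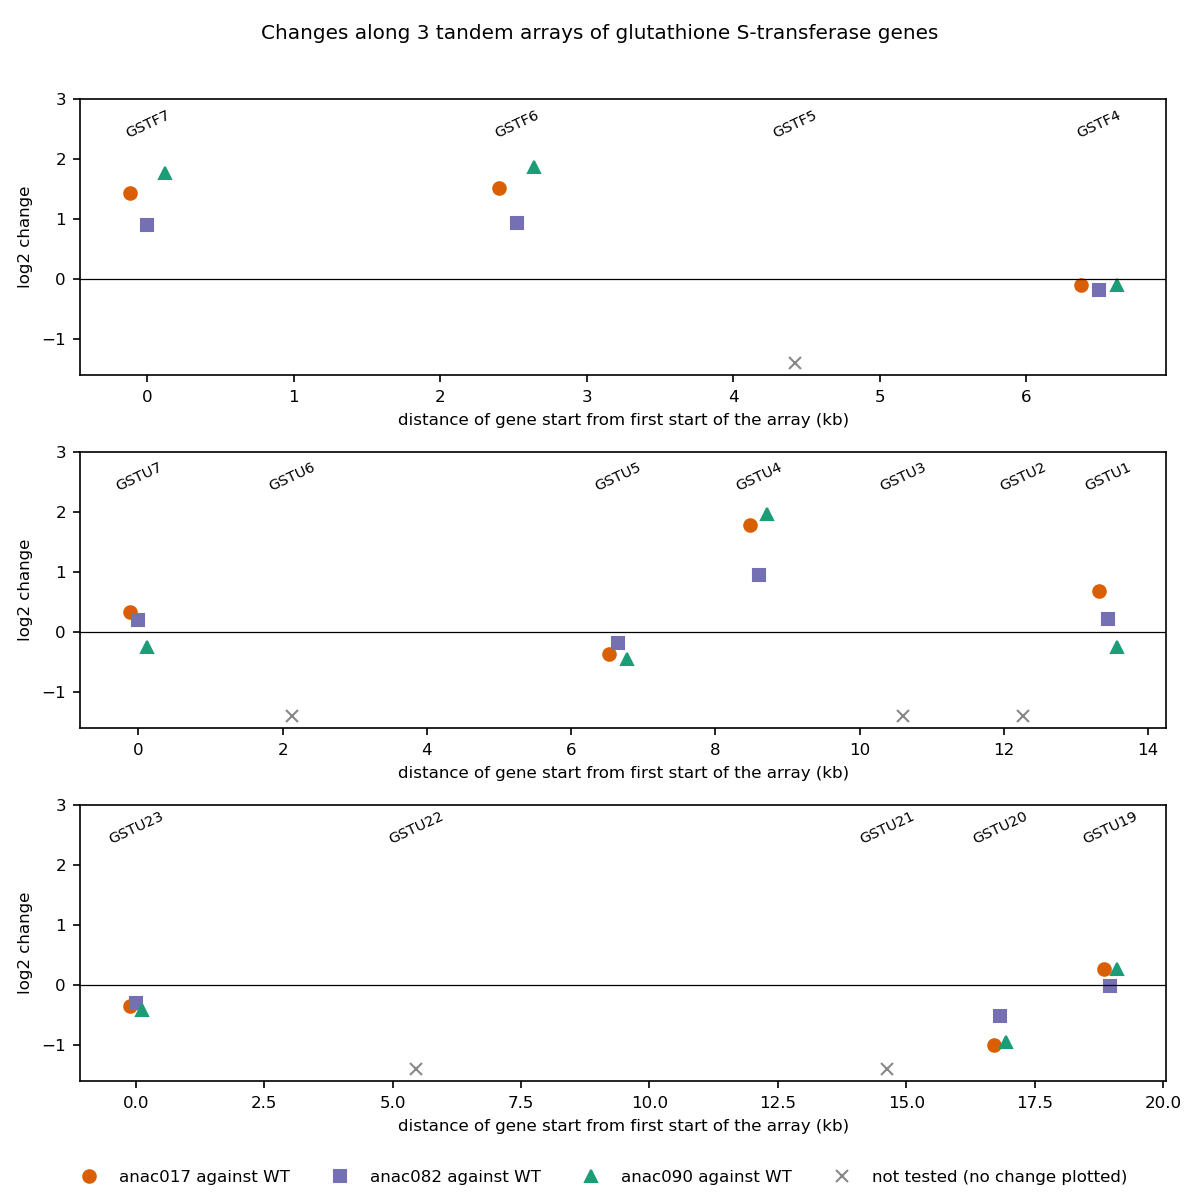
Log2 change against WT (y axis) of the genes of 3 tandem arrays by the distance of their start from the first start of the array (x axis, kb), for anac017 (circles), anac082 (squares) and anac090 (triangles), with symbols moved slightly sideways by line. Crosses at the lower edge mark genes that were not tested, and GSTF7, GSTF6 and GSTU4 have changes of 0.89 to 1.97 while GSTF4, GSTU5 and GSTU20 lie below 0.

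The promoters of 4 members called higher in anac090 (GSTF3, GSTF7, GSTU4 and GSTU9) are shown for the letters they hold, in the 250 bases before the RefSeq gene start on the TAIR10.1 assembly, 5′ to 3′ in the direction of the gene. Capitals mark TGACG, the core of the element that TGA factors bind, and TTGAC, the core of the W box of WRKY factors, on either strand (CGTCA and GTCAA on the other). The window of GSTF2 overlaps another annotated gene and is not printed.
GSTF3, chr2:852322-852571, minus strand: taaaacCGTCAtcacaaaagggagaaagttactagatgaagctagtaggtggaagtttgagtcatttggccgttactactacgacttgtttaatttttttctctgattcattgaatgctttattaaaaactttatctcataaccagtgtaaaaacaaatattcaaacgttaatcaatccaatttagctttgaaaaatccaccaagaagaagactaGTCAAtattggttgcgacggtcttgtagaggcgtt
GSTF7, chr1:659981-660230, minus strand: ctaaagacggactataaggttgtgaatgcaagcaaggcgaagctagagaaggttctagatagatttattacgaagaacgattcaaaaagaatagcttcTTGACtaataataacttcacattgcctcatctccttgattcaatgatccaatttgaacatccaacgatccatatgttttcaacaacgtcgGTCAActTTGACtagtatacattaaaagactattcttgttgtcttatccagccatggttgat
GSTU4, chr2:12627892-12628141, minus strand: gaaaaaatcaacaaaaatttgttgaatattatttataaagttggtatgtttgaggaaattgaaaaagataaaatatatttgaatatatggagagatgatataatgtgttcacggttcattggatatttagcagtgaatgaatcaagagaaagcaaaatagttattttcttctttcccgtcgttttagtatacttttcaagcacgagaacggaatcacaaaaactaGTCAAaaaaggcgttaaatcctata
GSTU9, chr5:25089627-25089876, minus strand: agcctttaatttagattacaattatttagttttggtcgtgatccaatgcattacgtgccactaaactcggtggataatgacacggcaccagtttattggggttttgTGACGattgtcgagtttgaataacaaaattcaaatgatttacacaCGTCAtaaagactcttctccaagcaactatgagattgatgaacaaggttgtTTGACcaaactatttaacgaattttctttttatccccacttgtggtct
TTGAC was found in 5 of the windows of the 6 genes called higher in anac090, in 29 of the 45 tested members (64.4%) and in 36 of all 60 (60.0%), beside 44.9% of 27438 genes. TGACG was found in 2 of the 6, in 13 of the 45 (28.9%) and in 17 of the 60 (28.3%), beside 18.6% of genes. GSTU9 had TGACG at 2 places, GSTF3 at 240 bases before its start, and GSTF7 had TTGAC at 3 places. The mitochondrial dysfunction motif bound by ANAC017 and related factors, was found in 1 of the 60 windows, that of GSTF4, and in 1.20% of genes. The motifs may overlap each other, and a match is a string of letters, not a shown binding site.

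Beside the GST members, 35 genes were chosen by their roles, and 33 were tested. They were 25 genes that make, reduce, break down, move or use glutathione, 3 sulfate reduction genes (APR1, APR2 and APR3) and 7 genes of TGA factors. Against WT, 2 were called higher and 0 lower in anac017 (3 and 2 with the block), none in anac082, and 4 higher and 1 lower in anac090 (7 and 4 with the block, with 2 TGA genes among the 7). Over all genes, the shares called higher and lower were 1.47% and 0.612% in anac017 (4.11% and 3.05% with the block), 0.0297% and 0.0178% in anac082, and 3.66% and 3.65% in anac090 (8.19% and 10.1% with the block). The medians of the 33 changes were 0.06, -0.02 and -0.01. Both enzymes of glutathione synthesis, GSH1 and GSH2, had no call, with changes between -0.30 and 0.08. GPX3, a glutathione peroxidase, stood at 5.41, 5.31 and 5.62 in anac017, 4.96, 5.12 and 5.26 in anac082, 5.23, 5.004 and 5.62 in anac090, and 4.66, 4.58 and 4.70 in WT, with no mutant library among the WT values. It rose by 0.80 ± 0.15 in anac017 (adjusted p = 0.0261, called in 6 of the 12 fits that leave out 1 library) and by 0.64 ± 0.15 in anac090 (0.0374, called in 2 of 12). GPX5 rose by 0.49 ± 0.13 in anac090 (adjusted p = 0.0462) and GPX8 by 0.58 ± 0.14 (0.0404), each called in 2 of the 12 fits. AT4G29210, a gamma-glutamyl transferase of glutathione breakdown (GGT3 in the table, GGT4 in other sources), rose by 0.54 ± 0.09 in anac017 (adjusted p = 0.0177, called in 7 of 12) and by 0.51 ± 0.09 in anac090 (0.0264, called in 9 of 12). The gene of the organellar glutathione reductase GR2 (AT3G54660) fell by 0.52 in anac090 (SE 0.12, adjusted p = 0.0374, called in 2 of 12). Over the fits that leave out 1 library, the counts were 0 to 9 higher and 0 to 3 lower in anac017 and 0 to 7 higher and 0 to 6 lower in anac090. The shares of all genes moved in the same fits, from 0.268% to 8.38% higher and 0.0178% to 9.2% lower in anac017. In anac090 they moved from 0.0535% to 13.8% higher and 0.0119% to 16.0% lower. Over all 12 libraries, none of the 7 TGA factor genes was called without the block, and TGA3 and TGA5 were called higher in anac090 with it (adjusted p = 0.0350 and 0.0281).

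Markers of other cell types were read beside these values. The summed level of the 2 epidermis markers was 203 to 294 in anac017, 185 to 296 in anac082 and 133 to 256 in anac090, against 239 to 388 in WT. The summed level of the 2 guard cell markers was 9.96 to 11.8 in anac017, 10.3 to 15.5 in anac082 and 11.6 to 13.8 in anac090, against 14.98 to 16.5 in WT. The summed level of the 2 vasculature markers was 296 to 361 in anac017, 317 to 364 in anac082 and 266 to 363 in anac090, against 334 to 401 in WT. Taken singly, the epidermis marker ATML1 was below WT (4.86 to 4.91) in every mutant library, at most 4.74, while CER6 overlapped WT in each line. The vasculature marker AHA3 lay below WT in anac017 only (6.87 to 7.13 against 7.26 to 7.47), and SUC2 overlapped WT in each line. None of these 6 genes was called in a comparison with WT (limma), and their part in the GST values was not tested. The highest value in any library was 0.47 for the root marker PYK10, 0.35 for the dividing cell marker CYCB1;1, and 0.28, 0.75 and 1.11 for the flower markers AP3, PI and AG.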

How the data were processed

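The authors deposited 1 table of log2 values per gene for 12 libraries. Per the labels' protocols, libraries were made with the TruSeq Stranded mRNA kit and read on an Illumina HiSeq. CASAVA 1.8.2, Cufflinks, TopHat and the TAIR10 genome are listed in the submitters' processing notes. No source used here gives the unit under the logarithm. The values were read as log2(abundance + 1), quantile normalized: at any rank the libraries differ by at most 0.08, and back-transformed sums were 621025 to 621047. No counts or depths are given, so depth is unknown and no counting interval is printed.

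Of 33726 entries, 529 (1.57%) without a gene identifier were left out. Genes with a mean back-transformed level of at least 1 over the 12 libraries (16817) were fitted with limma 3.58.1 in R 4.3.3 (4 groups, mean-variance trend), with Benjamini-Hochberg adjustment over all of them and a threshold of 0.05. The fit was tested on simulated data, drawn with independent normal spread per gene. For anac017 against WT, it recovered 75 of 100 changes of 1 log2 unit and 93 of 100 of 2 units, with 15 false calls. The simulated data held no shared replicate effect and no outlying library, so the fit was not tested for these. Table starts count from 0 and are given from 1; promoter and coding sequences are RefSeq's on TAIR10.1, where all 60 members were found. Promoter windows other than the 4 printed are not reported here.

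Named members were all those called, the 8 highest and 5 lowest changes of each comparison with WT, the 10 most abundant in WT, and neighbours in a tandem array whose changes differ by more than 1. Members and lists were chosen with earlier results of these data known. Same-numbered libraries deviated together by the rule used (every correlation above 0.1) in each comparison with WT, where r was 0.165 to 0.487, and for anac017 with anac082 and with anac090 (0.192 to 0.425). For anac082 with anac090 they did not (-0.310 for replicate 2). The pairing comes from the data, since the labels give numbers only. Block values therefore stand beside results whose call they change. Alternatives were other filters (none, or at least 5), a pseudocount of 0.1, only 2 groups in the fit, the block, a shared median, no trend, and leaving out libraries. Running them on the other genes chosen by role was added after seeing the data.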

Additional observations from a re-analysis of the deposited data

Results flagged for a closer look

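One gene of glutathione metabolism, the organellar glutathione reductase GR2 (AT3G54660), differed between mutant lines by a direct test. Its level was 7.45, 7.68 and 7.58 in anac017, 6.86, 6.78 and 6.88 in anac082, 6.71, 6.77 and 6.31 in anac090, and 7.004, 7.17 and 7.16 in WT. The anac017 libraries lay above all WT libraries, and the anac082 and anac090 libraries lay below them. The difference was 0.73 for anac017 against anac082 (adjusted p = 0.0204, 0.0241 with the block, limma) and 0.97 for anac017 against anac090 (adjusted p = 0.00302, 0.00477 with the block). The first was called in 6 of the 12 fits that leave out 1 library (adjusted p from 0.00210 to 0.1002) and the second in 12 of 12 (0.00260 to 0.0221), but not with only those 2 groups fitted. Against WT the changes were 0.45 in anac017 (adjusted p = 0.0709), -0.28 in anac082 (0.688) and -0.52 in anac090 (0.0374).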

How the results depend on the processing

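Counts of called members, 1 higher and 0 lower in anac017, 0 and 0 in anac082, and 6 and 1 in anac090, moved with the libraries and genes fitted. Leaving out 1 library gave 0 to 12 higher and 0 to 4 lower in anac017, 0 in anac082, and 0 to 15 higher and 0 to 9 lower in anac090. The calls over all genes moved in the same fits, from 0.268% to 8.38% higher and 0.0178% to 9.2% lower in anac017, and from 0.0535% to 13.8% higher and 0.0119% to 16.0% lower in anac090. With only the 2 groups fitted, the members called were 16 and 4 in anac017 and 0 and 0 in anac090. With the replicate block, they were 5 and 0 in anac017 and 12 and 2 in anac090. Without anac082 replicate 1 and anac090 replicate 3, which stood out in these same values, 14 and 5 were called in anac017 and 10 higher in anac082. The stricter filter, which left GSTF3, the only gene called in anac017, untested, gave 0 higher there (1.95% of all genes then tested). In anac090 it gave 4 higher and 1 lower (4.17% and 4.37% of all genes), where GSTF3 and GSTU9 are no longer tested. No filter gave 1 higher and 0 lower in anac090 (1.05% and 0.903% of all genes). Without the mean-variance trend, 5 higher and 1 lower were called in anac090 (3.26% and 2.98% of all genes), with GSTU4 lost (adjusted p = 0.0526). A pseudocount of 0.1 and a shared median left these counts as they were. The cause was not tested. Of 969 values for the 49 named changes under alternatives, 823 kept direction and call, 84 lost a call, 60 gained one and 2 reversed: GSTU19 in anac090 was -0.13 without anac090 replicate 3 and -0.13 without both libraries, beside up to 0.54 when another single library was left out. Most of the 49 changes were not called to begin with, and only a called change can lose a call. The 823 thus count mostly changes that stayed uncalled and do not measure how firm the calls are. No GST member was called between mutant lines under any alternative run. Because depth is unknown, counting error could not be separated from other spread in genes of low level.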
